A study of Mus musculus with 12 samples.

Results

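Protein-coding genes that untreated macrophages hardly transcribe, but that lie beside genes the same cells express, were followed through 3 conditions. They were chosen by 4 measures: the gene is protein-coding (mitochondrial genes and genes named Hist left out), its mean over the 4 untreated libraries is below 0.1 FPKM, its mean over all 12 libraries is below 1 FPKM, and its span lies within 10 kb of a gene with an untreated mean of at least 5 FPKM without overlapping such a gene. FPKM is fragments per kilobase of gene and per 1000000 counted reads. The rule took 875 of the 32246 genes of the table, called silent neighbours here. They lie on 20 chromosomes, beside 795 of the 6145 expressed genes. Another 4137 silent coding genes had no expressed gene within 10 kb and serve for comparison, and 182 that overlapped an expressed gene were left aside.

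The cells were mouse bone marrow-derived macrophages, which had spent 7 days in GM-CSF (50 ng/mL), a growth factor that drives marrow cells toward macrophages and dendritic cells. All 3 groups had this culture in common. Cells were left untreated, with no time given for them in the labels, or were treated for 24 h. The first treatment was plasminogen (PLG, the precursor of the clot-dissolving protease plasmin) pretreated with EACA, a lysine analogue that occupies the lysine-binding sites of plasminogen (PLG+EACA). The other was PLG pretreated with both EACA and RNases (PLG+EACA+RNase). Each group had 4 libraries of total RNA from a directional kit. Separate animals or cultures behind the 4 libraries are not stated in the labels, so p-values measure only the spread between these samples, which may be technical. No group received EACA or RNase without PLG. In bulk RNA, a change in a few cells and a change in every cell cannot be told apart.

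RNA polymerase II does not stop where a messenger RNA ends. The transcript is cut and polyadenylated at a signal near the end of the gene, most often the hexamer AATAAA, and the polymerase runs on until termination factors release it. Genes that a cell type does not use usually lie in closed chromatin with an inactive promoter, and reads over them can begin at their own promoter or at another start. A table of reads per gene, as used here, does not show where in a gene its reads lie or where the transcript began. Whether the authors counted by strand is not stated, so reads of the strand opposite to a silent gene, or of a gene that overlaps it, may be among its reads. Of the 875 silent neighbours, 290 overlapped another gene of the table, none of which was an expressed one.

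Macrophage markers were abundant, as the label says: 8 of them summed to at least 4079.8 FPKM in every library, against at most 0.407 FPKM for 3 B cell markers and 0.161 FPKM for 3 T and NK cell markers. Most of the macrophage sum was the single gene Lyz2, at means of 4663, 4289 and 3615 FPKM in untreated, PLG+EACA and PLG+EACA+RNase libraries. In the same order Csf1r stood at 324, 187 and 186, and Mertk at 5.97, 13.9 and 9.2. Cells in GM-CSF also carry dendritic cell markers, and 5 of these summed to 564.6 to 616.1 FPKM untreated, 419.7 to 554.5 with PLG+EACA and 515.3 to 567.2 with PLG+EACA+RNase. Most of it was Itgax (CD11c), at means of 506.6, 386.0 and 405.2 FPKM in the 3 groups, and Ccr7, a chemokine receptor, stood at 78.5, 99.9 and 121.6. Markers of stroma and endothelium summed to at most 12.6 FPKM. The summed level of 8 neutrophil markers ran from 9.95 to 34.3 FPKM in untreated cells, 16.5 to 39.5 with PLG+EACA and 14.8 to 35.3 with PLG+EACA+RNase, with Ly6g and Retnlg below a mean of 0.1. Of the 8, 5 were tested and only the myeloperoxidase gene Mpo passed, with means of 0.0128, 0.148 and 0.853 FPKM in untreated, PLG+EACA and PLG+EACA+RNase libraries. Mpo rose by 2.17 ± 0.33 on the log2 scale between the treatments (SE, limma adjusted p = 0.000887). Among the others, the means of Ngp, Ltf, Camp and Retnlg were larger with PLG+EACA+RNase than with PLG+EACA. Those of S100a8, Ly6g and Elane were smaller, and Elane had means of 0.065, 0.411 and 0.145 FPKM in the 3 groups. Mast cell and basophil markers reached 5.2 FPKM in 1 PLG+EACA+RNase library, against at most 1.04 in untreated and 0.604 in PLG+EACA libraries, and the part of any of these cell types in the results was not tested. The neutrophil elastase gene Elane and the erythroid factor gene Klf1 are themselves silent neighbours, both too low to be tested. Depth ran from 12940751 to 22677035 counted reads per library, worked back from the size of 1 read in FPKM, and the shallowest was a PLG+EACA+RNase library. Genes with at least 1 read numbered 21421 to 22792 in untreated, 20962 to 22706 in PLG+EACA and 23282 to 24224 in PLG+EACA+RNase libraries.

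The values below are RPM, the reads of a gene per 1000000 counted reads of the library (FPKM times the gene length in kilobases), because the precision of a nearly silent gene depends on its reads. At this depth 1 read is worth 0.0441 to 0.0773 RPM. The median silent neighbour had a mean of 0.0642 RPM in untreated cells, and 119 were listed at 0 in all 4 untreated libraries. Each of the 875 had a read in some library. Near the limits of the rule, the last ones inside were Krt222 and Tctn2, both at 0.0993 FPKM untreated, and Cd300ld2 at 0.0995, while Porcn, Dpep2nb and Rnf39, at 0.1 FPKM or just above, stayed outside. On distance, ETV3L and Arhgef10 at 9942 bases and Tmc2 at 9984 were inside, and Gm5294 at 10002, Qprt and Gm34653 at 10005 bases outside. On the level of the expressed gene, Tmem44 (neighbour at 5.01 FPKM), Trim38 (5.02) and Emid1 (5.07) were inside, and Itga2 (4.95), Arhgef38 (4.97) and Plat (4.98) outside. Of the 9 just inside, Tmc2, Trim38, Emid1, Cd300ld2 and ETV3L had 7 reads or fewer in any group.

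The ends of the expressed genes are shown for 6 loci in which the silent gene lies past the 3′ end on the same strand, the arrangement with the largest share of silent genes that rose. These are the last 30 bases of the annotated transcript, in the 5′ to 3′ direction of the gene, from GENCODE M21 (GRCm38), with the polyadenylation signal AATAAA or ATTAAA in capitals where these bases hold one. The silent gene follows after 999 bases for Scly (Espnl), 845 for Tmem63b (Capn11), 9703 for Sestd1 (Ccdc141), 629 for Atp6v0a2 (Dnah10), 584 for Drg2 (Myo15) and 9104 for Arap1 (Pde2a).
Scly: aATTAAAtgaactaatgaaacatgtctgca
Tmem63b: tttaaAATAAAaacaaaagctgtgagtttg
Sestd1: tctgtaAATAAAgattattcataaaatcta
Atp6v0a2: acaaAATAAAtgtatatttttgagatgcca
Drg2: tgcggggaagcggttccttcccagaccaga
Arap1: cccccatcacctataaagctctgaaccccg
They lie at chr1:91321046-91321075 (plus strand), chr17:45660171-45660200 (minus), chr2:77180340-77180369 (minus), chr5:124724426-124724455 (plus), chr11:60468725-60468754 (plus) and chr7:101412557-101412586 (plus). In 4 of the 6, the signal begins 24 to 29 bases from the end, and the ends of Drg2 and Arap1 hold neither hexamer in these 30 bases.

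Across all loci, the nearest genes' ends were set beside those of all expressed coding genes. In the last 50 bases of the transcript strand, 64.8% of 5918 expressed coding genes held AATAAA and a further 14.9% held only ATTAAA. Among 788 nearest genes of silent neighbours the shares were 65.2% and 15.1%, and among the 199 with the silent gene past their 3′ end on the same strand 66.8% and 14.6%. For the 44 of these whose silent gene was higher with PLG+EACA+RNase (tested below), 31 held AATAAA, 6 only ATTAAA and 7 neither. A match is a description of the letters and not of use.

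Promoters of 3 silent neighbours show how unlike these genes are at their own start. The sequences run from 250 bases before to 50 after the start (RefSeq, GRCm38.p6), with each CG dinucleotide in capitals, the pair on which mammalian DNA is methylated. They are chr11:60469089-60469388 for Myo15, chr1:91321825-91322124 for Espnl (both plus strand) and chr4:116877152-116877451 for Zswim5 (plus).
Myo15: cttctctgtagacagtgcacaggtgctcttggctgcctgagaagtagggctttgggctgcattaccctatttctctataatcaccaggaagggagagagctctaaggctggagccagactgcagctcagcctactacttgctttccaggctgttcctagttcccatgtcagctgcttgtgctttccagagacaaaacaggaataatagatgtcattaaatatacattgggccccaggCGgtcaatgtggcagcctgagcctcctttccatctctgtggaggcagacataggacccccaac
Espnl: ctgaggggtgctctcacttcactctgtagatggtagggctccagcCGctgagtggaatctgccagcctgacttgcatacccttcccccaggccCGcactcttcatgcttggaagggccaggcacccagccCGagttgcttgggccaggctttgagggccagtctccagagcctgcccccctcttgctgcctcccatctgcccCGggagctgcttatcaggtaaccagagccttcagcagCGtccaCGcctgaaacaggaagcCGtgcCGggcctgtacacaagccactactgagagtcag
Zswim5: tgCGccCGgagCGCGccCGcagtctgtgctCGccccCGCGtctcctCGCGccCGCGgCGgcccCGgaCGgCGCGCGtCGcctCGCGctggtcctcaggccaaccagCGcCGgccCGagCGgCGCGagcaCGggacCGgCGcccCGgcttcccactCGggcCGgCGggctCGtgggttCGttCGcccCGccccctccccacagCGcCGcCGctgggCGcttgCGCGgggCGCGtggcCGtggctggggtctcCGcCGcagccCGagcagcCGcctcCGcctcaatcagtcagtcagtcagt
Myo15 has 1 CG in the 300 bases, Espnl 8 and Zswim5 52, and all 3 genes were higher with PLG+EACA+RNase. Of the 875 silent neighbours, 618 matched a promoter of the RefSeq table. Their median GC content was 56.7%, against 52.7% over all 32851 promoters, and 58.7% for the 87 that rose. The median number of CG was 8, against 7 and 11. On either strand, the interferon response element GAAANNGAAA stood in 2.91% of the silent neighbours' promoters (3.44% of all), the heat shock element GAANNTTCNNGAA in 0.971% (0.603%), the TATA box TATAAA in 10% (13.6%) and the NF-kB site GGGNNNNTCC in 23.1% (19.2%). Among the 87, these motifs stood in 1, 1, 8 and 23 promoters.

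Reads over the silent neighbours were few in untreated cells, somewhat more with PLG+EACA and most with PLG+EACA+RNase. Summed over the 875, untreated replicates 1 to 4 had 120.4, 105.7, 109.4 and 103.1 RPM. PLG+EACA libraries had 170.1, 137.5, 146.2 and 106.8, and PLG+EACA+RNase libraries 282.1, 379.1, 376.0 and 242.9. All 4 PLG+EACA+RNase libraries stood above all others, while PLG+EACA replicate 4 lay among the untreated libraries. Its place depends on the scaling by total reads. With median-of-ratios factors, 0.844 for this library and 1.10 to 1.13 for the untreated ones, its sum lay above all untreated sums. The means were 109.6 ± 7.62, 140.2 ± 26.2 and 320.0 ± 68.4 (SD, n = 4 each), from 8146, 10919 and 21614 reads per group. PLG+EACA+RNase was 2.28 times PLG+EACA and 2.92 times untreated, and PLG+EACA 1.28 times untreated. Of the 875, 728 had a higher mean with PLG+EACA+RNase than with PLG+EACA and 134 a lower one. The sum did not rest on a few genes: without the 10 with most reads the ratio of PLG+EACA+RNase to PLG+EACA was 2.28, and the 10 genes held 11.1% of the difference.

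The 4137 silent genes with no expressed gene within 10 kb also had most reads with PLG+EACA+RNase. Their summed RPM were 305.6 ± 17.7 untreated, 430.6 ± 49.4 after PLG+EACA and 724.3 ± 121.0 after PLG+EACA+RNase (SD, n = 4 each), so that PLG+EACA+RNase was 1.68 times PLG+EACA. Expressed genes gave a ratio of 0.996. They hold nearly all reads, and RPM sum to the same total in each library, so the scale itself holds this ratio near 1. The gene model Gm26917 alone held 110458 ± 7324 RPM in untreated libraries, 123785 ± 14169 after PLG+EACA and 138604 ± 9234 after PLG+EACA+RNase (SD, n = 4 each), the same order as the silent genes but a ratio of 1.12 between the treatments, and its part in the results was not tested. Whether the ratio of the silent neighbours differs from that of the distant silent genes was not tested.

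**Figure D1:**
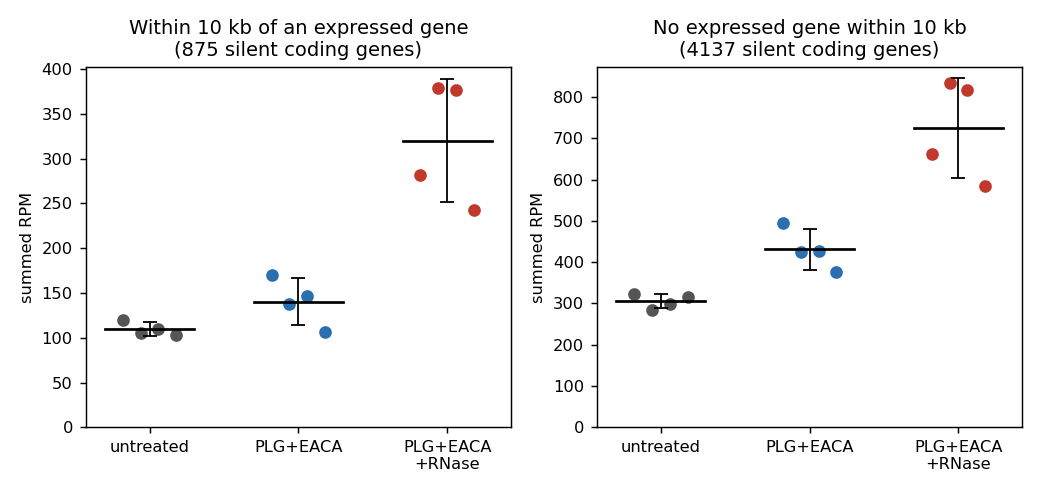
Summed RPM in each of the 12 libraries (points) with the group mean (line) and SD (bar, n = 4), for the 875 silent genes within 10 kb of an expressed gene and the 4137 others. In both panels all 4 PLG+EACA+RNase libraries lie above the rest, and the mean is 2.28 times that of PLG+EACA on the left and 1.68 times on the right.

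Gene by gene, PLG+EACA+RNase was tested against PLG+EACA, the comparison on which the rule takes no side. The test was limma on log2(RPM + 0.25) over the 16140 genes with a mean of at least 0.25 RPM, with Benjamini-Hochberg adjustment at 0.05. Of all genes tested, 15.5% were higher with PLG+EACA+RNase and 6.73% lower. Of the silent neighbours, 227 passed the filter and 648 did not. Of the 227, 112 were higher and 0 lower, and at an unadjusted p under 0.05 limma gave 147 higher and 0 lower. The 112 had log2 differences of 0.72 to 2.25 (median 1.19), 1.65 to 4.74-fold on this scale, which understates the change of low genes. The median log2 difference of the 227 was 0.80, against 0.10 over all genes tested. Of the 227, 13 had a negative log2 difference, the lowest -0.57 (Fgfr3, a growth factor receptor, named here after its values were seen, adjusted p = 0.165).

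A silent gene can pass the filter only because it is high with PLG+EACA+RNase, and such a gene had to differ, so the 112 of 227 is a description. Over all 875 the median log2 difference was 0.30, against 0.10 over the distant silent genes. A limit on the untreated mean, at least 0.25 RPM, was added to the filter after the data were seen. It kept 128 silent neighbours, of which 50 (39.1%) were higher and 0 lower. With both limits 35 of 285 distant silent genes were higher and 3 lower, and 2235 (14.5%) of 15430 genes in all were higher. The filter on all 12 libraries still applied, so a gene that fell with treatment could be left out. Gm29609 was, at means of 0.314, 0.147 and 0.108 RPM in untreated, PLG+EACA and PLG+EACA+RNase libraries. These counts are thus a description too. Among genes tested whose mean did not exceed that of the most abundant silent neighbour, 17.3% of 5704 were higher and 0.614% lower, so weakly expressed genes as a class went up more often than down.

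Scaling by median of ratios instead of total reads changed the background more than the silent neighbours. It gave 1797 genes higher and 2076 lower over all genes, with a median log2 difference of 0.00, and 109 silent neighbours higher and 0 lower. Without PLG+EACA+RNase replicate 2 or 3, or PLG+EACA replicate 4, the genes higher in all numbered 1417, 1423 and 1601, and the silent neighbours higher 80, 80 and 84. Of the 112, 73 stayed past the threshold without each of the 12 libraries in turn.

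Without a test, the groups of the 2 treatments did not overlap, PLG+EACA+RNase above PLG+EACA, in 104 of the 227 (45.8%), against 12.5% of all genes tested. They did not overlap in the other direction in 0 of the 227, against 5.69%. The filter fixes part of this count too, as above. With the added limit on the untreated mean it was 54 of 128 (42.2%), against 11.7% of 15430 genes, and 0 in the other direction, against 5.9%. The filter on all libraries still applied to these genes. Compared with untreated cells, whose values chose the genes, the counts are a description. PLG+EACA lay wholly above untreated for 40 of the 227 (17.6%, against 11.6% of all genes tested) and wholly below for 5 (2.2%, against 41.7%). PLG+EACA+RNase lay wholly above untreated for 122 (53.7%, against 16.1%) and wholly below for 0 (against 36.3%). A gene near 0 in untreated cells has little room to be lower.

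The silent neighbour with the largest difference between the treatments was Pde2a. It encodes a cGMP-stimulated phosphodiesterase and lies at chr7:101421691-101512827 (GRCm38, plus strand), past the end of Arap1, a GTPase-activating protein. It had 0.412, 0.271, 0.148 and 0.658 RPM in untreated replicates 1 to 4. With PLG+EACA it had 0.566, 0.4, 0.111 and 0, and with PLG+EACA+RNase 1.37, 1.96, 3.79 and 1.43. The PLG+EACA+RNase libraries were all above the other 8, which overlapped each other. Its log2 difference between the treatments was 2.25 ± 0.38 (SE, limma adjusted p = 0.00162), from 22 and 137 reads in all. Pde2a overlaps another gene of the table, so its reads may be shared.

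Pcsk4, a proprotein convertase of the testis, and Reep6, a membrane-shaping protein of rod photoreceptors, lie beside each other on chromosome 10 (80321283-80329498, minus strand, and 80329953-80336441, plus strand). Pcsk4 had 0.322, 0.068, 0.441 and 0.24 RPM untreated, 1.23, 0.837, 0.503 and 0.172 with PLG+EACA, and 3.73, 4.68, 3.71 and 2.48 with PLG+EACA+RNase. Reep6 had 0.183, 0.135, 0.145 and 0.12 untreated, 1.38, 1.1, 0.84 and 0.17 with PLG+EACA, and 3.83, 5.99, 5.02 and 2.21 with PLG+EACA+RNase. In both genes the PLG+EACA+RNase libraries were apart from the rest, and PLG+EACA replicate 4 was the lowest of its group. Their log2 differences between the treatments were 2.17 ± 0.34 and 2.09 ± 0.36 (SE, limma adjusted p = 0.00111 and 0.00171). The nearest expressed genes differed: Pcsk4 lies 745 bases before the start of 2310011J03Rik, and Reep6 lies 2668 bases tail to tail from Adamtsl5. Neither expressed gene passed the test, with log2 differences of -0.09 and 0.08 (limma adjusted p = 0.364 and 0.416).

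Among genes past the 3′ end of an expressed gene, Espnl, an actin-bundling protein of hair cell stereocilia, had few reads before treatment. It was listed at 0.0926, 0, 0 and 0.12 RPM in untreated libraries, 4 reads in all. It had 0.92, 1.01, 0.784 and 0.512 with PLG+EACA and 3.58, 5.34, 3.94 and 1.85 with PLG+EACA+RNase, so that the 3 groups did not overlap anywhere. PLG+EACA+RNase exceeded PLG+EACA by 1.83 ± 0.28 on the log2 scale (SE, limma adjusted p = 0.000945). Scly, the selenocysteine lyase gene that ends 999 bases before it, rose by 0.32 (limma adjusted p = 0.016), from 10.2 to 12.7 FPKM.

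Myo15, the myosin of the hair cell bundle, begins 584 bases after the end of Drg2, a GTPase gene. It had 0.274, 0, 0.196 and 0.417 RPM untreated, 1.43, 0.965, 1.07 and 0.743 with PLG+EACA, and 3.58, 5.75, 3.78 and 2.63 with PLG+EACA+RNase, again 3 groups without overlap. The log2 difference between the treatments was 1.66 ± 0.29 (SE, limma adjusted p = 0.00191). Drg2 stood at 9.69, 6.9 and 7.15 FPKM in the 3 groups, with a log2 difference of 0.05 between the treatments (limma adjusted p = 0.748).

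Capn11, a calpain of the testis, lies 845 bases past the end of Tmem63b, an ion channel gene. It had 0.046 to 0.146 RPM untreated, 0.154, 0.0433, 0.336 and 0.0569 with PLG+EACA and 0.883, 1.36, 1.16 and 1 with PLG+EACA+RNase. Its log2 difference of 1.81 ± 0.25 had the smallest adjusted p of any silent neighbour (SE, limma adjusted p = 0.000612), and Tmem63b rose by 0.28 (limma adjusted p = 0.0143). The untreated and PLG+EACA means of Capn11, 0.112 and 0.148 RPM, lie below the filter of 0.25 RPM. Capn11 was thus tested only because of its PLG+EACA+RNase libraries, and its p-value is a description.

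At greater distance past an end, Ccdc141, a coiled-coil protein gene at 9703 bases from Sestd1, had 0.832, 0.34, 0.68 and 0.293 RPM untreated. It had 2.1, 1.02, 0.949 and 0.515 with PLG+EACA and 2.6, 3.68, 4.71 and 2.69 with PLG+EACA+RNase. Its log2 difference between the treatments was 1.48 ± 0.32 (SE, limma adjusted p = 0.00526), and Sestd1 differed by 0.05 (limma adjusted p = 0.612). Arhgef10, a guanine nucleotide exchange factor at 9942 bases past Cln8, and Tmem44, at 9651 bases past Lsg1, rose by 1.32 and 1.19 (limma adjusted p = 0.00729 and 0.00893). Cln8 rose too, by 0.48 (limma adjusted p = 0.0117), and Lsg1 differed by 0.01 (limma adjusted p = 0.941). Tmem44 had means of 0.127 RPM untreated and 0.282 with PLG+EACA, against 0.998 with PLG+EACA+RNase. It may have passed the filter only through its PLG+EACA+RNase libraries.

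The gene Atp6v0a2, a subunit of the proton pump of lysosomes, has a silent gene on either side. Dnah10, a heavy chain of the axonemal dynein of cilia, begins 629 bases after its end. Dnah10 had 0.692, 0.74, 0.338 and 0.772 RPM untreated, 2.04, 1.24, 1.67 and 1.71 with PLG+EACA and 2.25, 4.81, 3.56 and 2.64 with PLG+EACA+RNase. Tctn2, a protein of the ciliary transition zone, ends 837 bases before the start of Atp6v0a2 and had 0.74, 0.408, 1.02 and 1.13 untreated, 0.973, 0.399, 0.166 and 1.08 with PLG+EACA and 0.291, 0.416, 0.774 and 0.474 with PLG+EACA+RNase. Dnah10 rose by 0.86 ± 0.24 on the log2 scale between the treatments (SE, limma adjusted p = 0.0206), and its 3 groups did not overlap. Tctn2 differed by -0.18 ± 0.35 (limma adjusted p = 0.748), with all 3 groups overlapping. Dnah10 lost its call without PLG+EACA replicate 2, PLG+EACA+RNase replicate 2 or PLG+EACA+RNase replicate 3 (limma adjusted p = 0.0568, 0.0782 and 0.0617). Atp6v0a2 itself differed by -0.18 (limma adjusted p = 0.104).

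Sptbn5, a spectrin gene 3496 bases past Ehd4, a gene of endocytic recycling, did not pass, although it is among the 15 silent neighbours with most reads. It had 0.501, 0.606, 0.932 and 0.594 RPM untreated, 1.95, 1.36, 1.24 and 1.99 with PLG+EACA and 2.02, 2.19, 2.17 and 3.06 with PLG+EACA+RNase. The difference between the treatments, 0.48 ± 0.21 on the log2 scale, did not pass (limma adjusted p = 0.11), although the groups did not overlap. Ehd4 stood at 22.7 FPKM untreated, at 52.2 with PLG+EACA but at 34.4 with PLG+EACA+RNase, and fell by 0.62 between the treatments (limma adjusted p = 0.0155).

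Tail to tail, where the silent gene lies past the end of the expressed gene but on the other strand, the most abundant were Ttn, Celsr2 and Kcnab1. Ttn encodes titin, the giant spring protein of muscle, and is 117334 bases long in the table, so that a low FPKM still gives many reads. It had 1.17, 1.41, 1.17 and 0.939 RPM untreated, 2, 2.11, 2.23 and 0.587 with PLG+EACA and 4.81, 5.98, 6.8 and 4.58 with PLG+EACA+RNase. PLG+EACA replicate 4 was below every untreated library, while all PLG+EACA+RNase libraries were above the other 8. The log2 difference between the treatments was 1.65 ± 0.28 (SE, limma adjusted p = 0.00164), and the nearest gene Plekha3, 7151 bases away, had a difference of -0.03 that did not pass the limma test.

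Celsr2, a cadherin of planar cell polarity, had 0.737, 0.207, 0.391 and 0.299 RPM untreated, 1.59, 1.1, 0.564 and 0.633 with PLG+EACA and 4.12, 4.57, 6.49 and 2.37 with PLG+EACA+RNase. It rose by 1.93 ± 0.32 (SE, limma adjusted p = 0.00151), and so did its neighbour Psrc1, a spindle gene, by 0.45 (limma adjusted p = 0.0336). Zswim5, a zinc finger gene 700 bases from Urod, an enzyme of heme synthesis, had 0.0614 to 0.341 untreated, 1.23, 0.793, 1.07 and 0.402 with PLG+EACA and 3.43, 5.58, 3.79 and 2.32 with PLG+EACA+RNase. Zswim5 rose by 1.85 ± 0.30 (SE, limma adjusted p = 0.00121) and Urod differed by 0.07 (limma adjusted p = 0.608). Pax8, a transcription factor of thyroid and kidney, had 0.0485 to 0.139 untreated, 0 to 0.333 with PLG+EACA and 1.18, 1.24, 1.39 and 0.63 with PLG+EACA+RNase, a rise of 1.77 ± 0.28 (SE, limma adjusted p = 0.00121). Pax8, at means of 0.0788 and 0.158 RPM in untreated and PLG+EACA libraries, was tested only because of its PLG+EACA+RNase libraries, as Capn11 was. Both Zswim5 and Pax8 overlap another gene. So do Ccdc141, Arhgef10 and Sptbn5 above and Kcnab1, Pdzd2, Tmem151b, Eaf2 and Gm29609 below, so their reads may be shared too.

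Muc5b, a gel-forming mucin of the airways 1728 bases from the Toll-like receptor adaptor Tollip, had 0.18 to 0.628 RPM untreated, 0.688 to 1.74 with PLG+EACA and 2.6 to 4.5 with PLG+EACA+RNase. Muc5b rose by 1.31 ± 0.27 (SE, limma adjusted p = 0.0042) and Tollip by 0.27 (limma adjusted p = 0.0301). Adam22, a membrane protein of neurons, rose by 0.78 ± 0.19 (SE, limma adjusted p = 0.0106) from means of 1.31 RPM untreated and 1.26 with PLG+EACA, and it overlaps another gene. Kcnab1, a potassium channel subunit, Pdzd2, a PDZ domain gene, and Uggt2, a glucosyltransferase, did not pass, with log2 differences of 0.33, 0.15 and 0.38 (limma adjusted p = 0.266, 0.695 and 0.369). Kcnab1 ranged over 0.693 to 1.35 RPM untreated, 1.94 to 2.79 with PLG+EACA and 2.45 to 4.17 with PLG+EACA+RNase. Pdzd2 ranged over 0.608 to 1.22, 1.64 to 2.67 and 1.47 to 3.56 RPM in the same order. In both, the treatment groups overlapped each other and lay above all untreated libraries.

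Head to head, where the starts of both genes face each other, fewer reads were seen. Nyap1, an adaptor of PI3 kinase in neurons 4122 bases from Tsc22d4, had 0.551, 0.472, 0.246 and 0.357 RPM untreated, 0.309, 0.0891, 0.278 and 0 with PLG+EACA and 0.981, 1.84, 1.55 and 0.582 with PLG+EACA+RNase. It rose by 1.82 ± 0.32 between the treatments (SE, limma adjusted p = 0.00192), from a PLG+EACA mean of 0.169 that was under the untreated mean of 0.406. Nyap1 too may have passed the filter only through its PLG+EACA+RNase libraries. Slc24a1, a cation exchanger of rods, Tmem151b, a membrane protein gene, and Eaf2, an elongation-factor partner, had the most reads of this arrangement and rose by 1.23, 0.94 and 0.85 (limma adjusted p = 0.0162, 0.0117 and 0.0256). Their expressed neighbours Ints14 and Nfkbie fell, by 0.24 and 0.38 (limma adjusted p = 0.0194 and 0.00876), and Golgb1 rose by 0.31 (limma adjusted p = 0.0321). Slc24a1 lost its call without PLG+EACA replicate 4 (limma adjusted p = 0.0503). Eaf2 lost it in 7 of the 18 alternatives run on it, up to a limma adjusted p of 0.0823. Tmem231, of the ciliary transition zone, differed by 0.14 (limma adjusted p = 0.762).

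Before the start of an expressed gene on the same strand, the most abundant were Dmtn, Tmem72 and Pcsk4, described above. Dmtn, a protein of the red cell membrane skeleton, had 0.824, 1.15, 1.13 and 0.774 RPM untreated, 2.51, 1.54, 2.07 and 3.25 with PLG+EACA and 2.35, 1.42, 1.08 and 2.06 with PLG+EACA+RNase. Its log2 difference between the treatments was -0.40 ± 0.24 (limma adjusted p = 0.259), and the treatment groups overlapped. Tmem72, 5110 bases before Rassf4, had 0.189 to 0.412 untreated, 0.962 to 1.63 with PLG+EACA and 1.96 to 4.24 with PLG+EACA+RNase. Tmem72 rose by 1.03 ± 0.24 (SE, limma adjusted p = 0.00753) while Rassf4 fell by 0.35 (limma adjusted p = 0.00318). Krt222 (0.01, limma adjusted p = 0.989) and Tmod2, a neuronal actin-capping protein (0.62, limma adjusted p = 0.109), did not pass. Tmod2 was among the 5 silent neighbours with the largest decrease from untreated, from 0.955 to 0.429 RPM after PLG+EACA and 0.794 after PLG+EACA+RNase, along with Uggt2, Tmem231, Tctn2 and Gm29609.

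**Figure D2:**
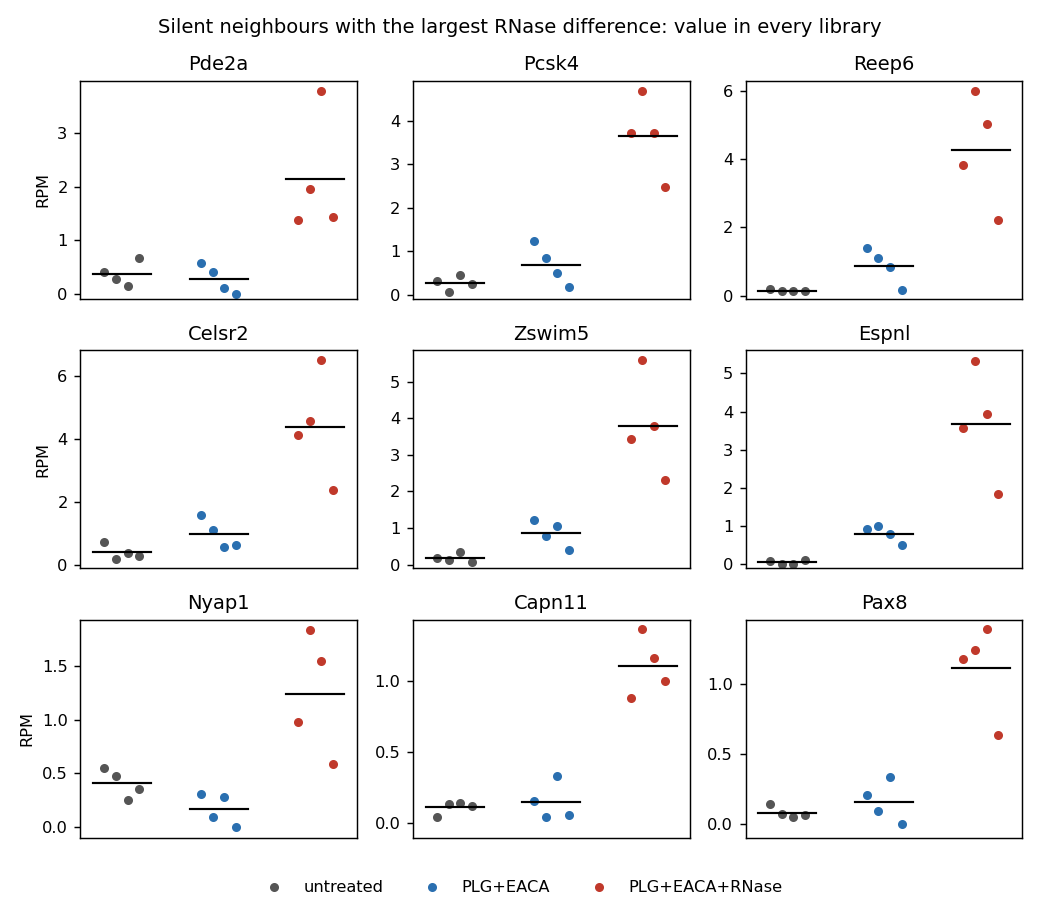
RPM in each library (points) and group means (lines) for the 9 silent neighbours with the largest log2 difference between PLG+EACA+RNase and PLG+EACA, each panel with its own axis from 0. In all 9 the PLG+EACA+RNase libraries lie above every PLG+EACA library, for example 1.37 to 3.79 against 0 to 0.566 for Pde2a.

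By position relative to the expressed gene, silent genes past the 3′ end on the same strand had the largest differences. Of 203 such genes 66 were tested and 44 (66.7%) were higher, with a median log2 difference of 1.13 over the 66. Before the 5′ end on the same strand it was 19 of 44 tested (43.2%, 216 genes, median 0.75), tail to tail 40 of 90 (44.4%, 309 genes, median 0.75) and head to head 9 of 27 (33.3%, 145 genes, median 0.57). For 2 genes the strand was not matched. Over all genes of each arrangement, tested or not, the summed RPM were 37.1 ± 8.92 (PLG+EACA) and 97.7 ± 22.2 (PLG+EACA+RNase; SD, n = 4 each) past the 3′ end, a ratio of 2.63. Ratios were 2.04 before the 5′ end, 2.25 tail to tail and 2.05 head to head. Against untreated cells PLG+EACA+RNase was 4.18, 2.53, 2.73 and 2.17 times higher in the same order, and PLG+EACA 1.59, 1.24, 1.21 and 1.06 times. Differences between the arrangements were not tested, and all 4 went in the same direction.

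**Figure D3:**
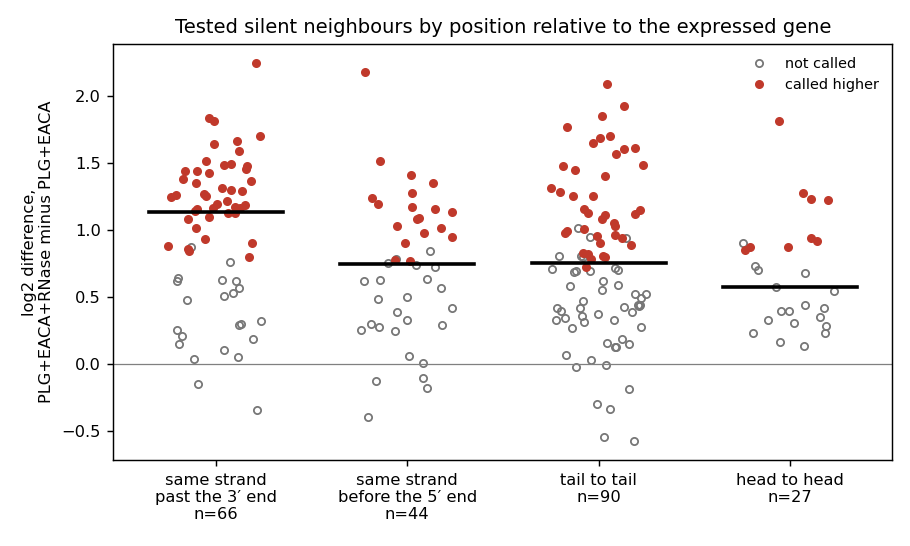
Log2 difference between PLG+EACA+RNase and PLG+EACA of each of the 227 tested silent neighbours (points; filled where limma called it higher) by arrangement, with the median of each (line). The median is 1.13 past the 3′ end on the same strand and 0.57 to 0.75 in the other 3, and filled points occur in each. Only tested genes are shown, and the filter can fix part of these values.

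Within 10 kb the ratio between the treatments followed no order of distance, and it was lowest for the silent genes farthest from any expressed gene. For silent genes under 1 kb from an expressed gene PLG+EACA+RNase had 2.24 times the summed reads of PLG+EACA, at 1 to 2 kb 1.82, at 2 to 5 kb 2.46 and at 5 to 10 kb 2.35 times. Past the limit of the rule the ratio was 1.94 at 10 to 20 kb, 2.12 at 20 to 50 kb, 1.53 at 50 to 100 kb, 1.69 at 100 to 200 kb, 1.34 at 200 to 500 kb and 1.18 over 500 kb. The share of tested genes called higher ran from 40% to 55.9% in the 4 bins within 10 kb and was 39.5%, 36.9%, 20%, 25.3%, 15.6% and 9.84% in the bins outside. The filter can fix part of these shares, while the ratios use all genes of each bin. At over 500 kb, the PLG+EACA and PLG+EACA+RNase libraries overlapped, at 51 to 70.7 and 64.2 to 78.8 RPM. The ratios at 10 to 50 kb thus lie within the range of the 4 bins inside the limit, and differences between the bins were not tested.

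**Figure D4:**
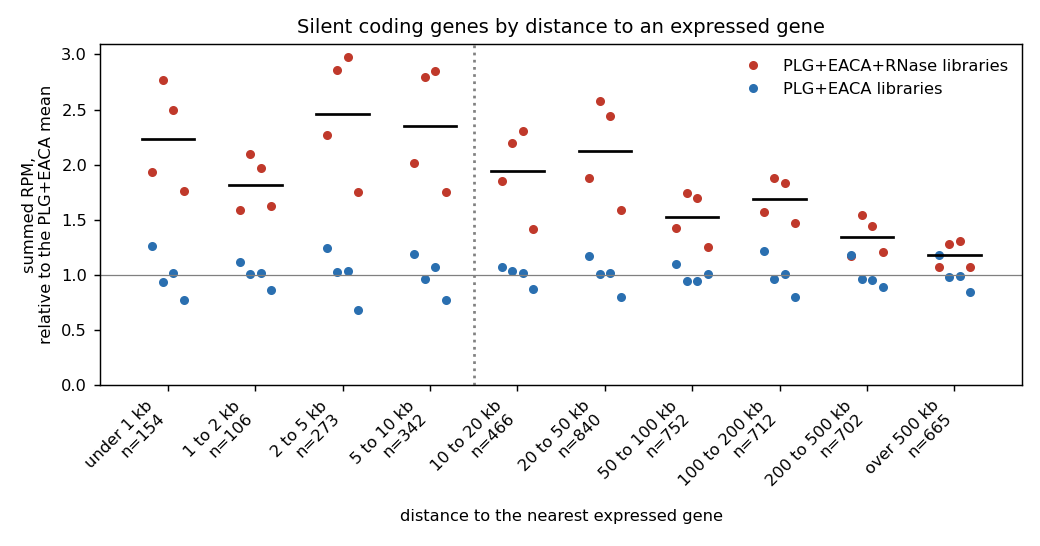
Summed RPM of silent coding genes in each treated library, relative to the PLG+EACA mean of the bin, by distance to the nearest expressed gene (the dotted line marks 10 kb; black lines are PLG+EACA+RNase means; n is the number of genes). Means are 1.82 to 2.46 within 10 kb and 1.18 over 500 kb, where the 2 groups of libraries overlap.

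Nor did the share of silent genes that rose follow the level of the expressed gene in every step. With the nearest gene at 5 to 10 FPKM, 36 of 83 tested silent neighbours were higher (43.4%), at 10 to 20 FPKM 34 of 66 (51.5%), at 20 to 50 FPKM 27 of 48 (56.2%) and at 50 FPKM or more 15 of 30 (50%). The ratios of summed reads between the treatments were 2.22, 2.36, 2.39 and 2.12. Silent neighbours that overlapped no gene at all gave 66 of 128 higher and a ratio of 2.33, and those that overlapped another gene 46 of 99 and 2.22. In each of these classes the filter can fix part of the counts of tested genes, while the ratios use all genes.

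Most expressed genes beside a silent gene that rose did not pass the test themselves. The 112 silent genes that rose had 112 different nearest genes, of which 81 did not pass the test, 21 were higher and 10 lower with PLG+EACA+RNase than with PLG+EACA. Of the 6143 expressed genes tested, 800 (13%) were higher and 755 (12.3%) lower, so most expressed genes as a class did not pass either. The median log2 difference of the 112 nearest genes was 0.06, and 38 had a value below 0. Their range was -0.70 to 1.12. Across the 227 tested pairs the log2 differences of the 2 genes had a Pearson correlation of 0.20 and a Spearman correlation of 0.21. The points share the same libraries, and this is a description. All 795 nearest genes had a median of 0.01, with 105 higher and 92 lower, beside the same shares of expressed genes.

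**Figure D5:**
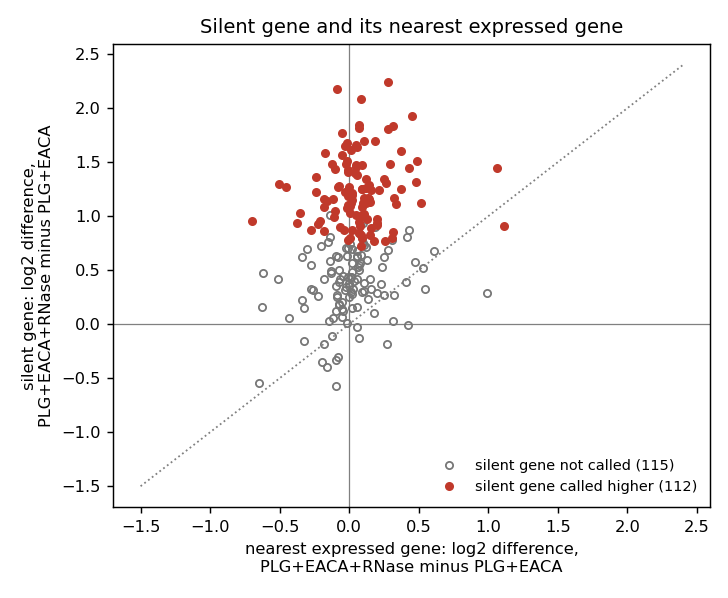
Log2 difference between PLG+EACA+RNase and PLG+EACA of each tested silent neighbour (vertical axis) against that of its nearest expressed gene (horizontal axis), 112 called higher (filled) and 115 not (open); the dotted line marks equal values. The expressed genes of the filled points range from -0.70 to 1.12 with a median of 0.06, and the 113 of the open points have a median of 0.01; filled points are high on the vertical axis because the call chose them.

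Members were not all separate loci. Of the 875, 137 shared their nearest gene with another, and 57 expressed genes had at least 2. The largest group was 18 genes of the protocadherin gamma cluster, cell adhesion genes that share their last exons, all tail to tail with the same gene. The counts by gene family are small and are set beside 49.3% of all tested silent neighbours and 15.5% of all genes tested. The filter can fix part of these counts too. By family, 6 of 9 tested solute carrier (Slc) genes among the silent neighbours were higher, 3 of 5 Tmem genes, 2 of 3 Fam genes, 4 of 5 genes with RIKEN clone names and 1 of 7 Gm gene models. Of the 9 olfactory or vomeronasal receptor genes 1 was tested and did not pass, nor did the 1 keratin gene, and the 2 Zfp genes were too low to test.

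Among 25 genes of 3′ end processing and termination, all tested, 5 were higher with PLG+EACA+RNase than with PLG+EACA and 5 lower, with a median log2 difference of 0.07. Over all genes tested 15.5% were higher and 6.73% lower, and over expressed genes 13% and 12.3%, with a median of 0.01. The higher ones were Scaf4 (0.42), Fip1l1 (0.46), Cstf3 (0.32), Sympk (0.24) and Pcf11 (0.24), factors of cleavage, polyadenylation or termination. Among the lower ones were Clp1 (-0.41), Cpsf2 (-0.34), Xrn2 (-0.26), the exonuclease of termination, and Nudt21 (-0.26). Of 13 heat shock genes, 5 were higher and 0 lower, with a median of 0.24, against the same shares of all genes tested and their median of 0.10. The inducible chaperones Hspa1a and Hspa1b, near-identical copies whose reads may be shared, stood at 0.335 ± 0.118 and 0.844 ± 0.0832 FPKM untreated, 5.87 ± 2.21 and 8.12 ± 2.67 with PLG+EACA, and 25.9 ± 9.59 and 35.2 ± 13.3 with PLG+EACA+RNase (SD, n = 4). Hsph1 (0.61), Hsp90aa1 (0.31) and Hspa8 (0.24) were the other 3. What part these genes have in the reads over silent neighbours was not tested.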

How the data were processed

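Total RNA of 12 libraries was measured, 4 in each of 3 groups taken from the labels. The authors deposited FPKM, 1 column per library, with gene coordinates and lengths. Per the submitters' processing notes, the tools were STAR 2.7.11a, featureCounts 2.0.6, cutadapt 4.5, DESeq2 1.40.2 and FastQC 0.12.1 and the build GRCm38.p6, their roles not being given. The annotation release and any use of strand in counting are not given in the sources used here. GENCODE M21 held 31595 of the gene identifiers with the same version and coordinates and gave a strand for 32156.

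FPKM times length in kilobases gave RPM (reads per 1000000 counted reads), which sum to 1000000 in each library. Since 100% of low values lay within 0.1 of a whole read in every library, total reads per library could be recovered, and these were 12940751 to 22677035. Genes with a mean of at least 0.25 RPM over the 12 libraries were fitted on log2(RPM + 0.25) by lmFit, contrasts.fit and eBayes with trend (limma 3.58.1, R 4.3.3), all 12 libraries in 1 fit without a block. Tests were two-sided, with Benjamini-Hochberg adjustment over the 16140 genes and a threshold of 0.05. A gene written as higher, lower, risen or fallen passed this test. The steps were tested on simulated data. Contrasts with untreated cells are given as values, because untreated values chose the genes.

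The nearest expressed gene is that with the smallest distance edge to edge. Named silent neighbours were the 10 with the largest positive log2 difference past the threshold (none was negative), the 15 with most reads, the 10 with the largest increase and 5 with the largest decrease from untreated, the 3 nearest to each limit inside and outside, and the 3 with most reads in each arrangement. Lists were 3′ end processing and termination, heat shock, gene families by symbol, and markers of macrophages, dendritic cells, neutrophils, B cells, T and NK cells, mast cells and basophils, erythroid cells, and stroma and endothelium. For 1 gene that this rule names and 1 gene of the lists, the result is not reported here. The members and lists were chosen with earlier results of these data known. Of the markers, 1 of 8 macrophage genes was higher and 2 lower with PLG+EACA+RNase than with PLG+EACA, and 1 of 5 dendritic cell, 1 of 5 tested neutrophil and 1 of 4 stroma and endothelium genes was higher. Of 1 B cell and 2 mast cell genes tested, 0 passed, and no T and NK or erythroid gene could be tested.

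Alternatives were other pseudocounts, filters, scaling, limits of the rule, a fit of 8 libraries, a replicate block, and leaving out each library.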

Additional observations from a re-analysis of the deposited data

Results flagged for a closer look

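In a group of 4 libraries, a library far from the other 3 stood out in 3 of the silent neighbours described. Titin (Ttn) had 0.587 RPM in PLG+EACA replicate 4, where the other 3 had 2 to 2.23. Slc24a1 had 0.975 in PLG+EACA replicate 1, where the others had 0.172 to 0.281. Sptbn5 had 3.06 in PLG+EACA+RNase replicate 4, where the others had 2.02 to 2.19. Chance sets apart about 1 in 20 such groups. Their causes were not tested.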

How the results depend on the processing

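No named silent neighbour that passed the test turned its direction in any setting, and of those that did not pass, Pdzd2, Tmem231, Krt222 and Tctn2 changed sign in some, never past the threshold. Over all genes the balance did: with median-of-ratios scaling 1797 were higher and 2076 lower, against 2497 and 1087 as reported. Genes higher with PLG+EACA+RNase than with PLG+EACA numbered 1349 on the FPKM scale (FPKM of at least 1 in 4 libraries, where 0 silent neighbours were tested) and 1508 with only the 8 libraries compared, and 1417 to 3085 without each library in turn. Those lower numbered 689 with the 8 libraries and 675 to 1400 without each library. Silent neighbours higher numbered 21 (of 27 tested) with a mean of at least 1 RPM, 74 of 159 at most 5 kb away and 67 of 104 below 0.05 FPKM untreated. They numbered 66 of 128 overlapping no gene and 80 to 123 without each library. With the further limit on the untreated mean, added after the data were seen, they numbered 50 of 128. Lower were 1 with no filter (Nrtn) and 1 at up to 20 kb (Dnmt3c, outside the 10 kb limit). The ratio of summed reads of PLG+EACA+RNase to untreated was 4.10 below 0.05 FPKM, and in arrangements added later 4.18 past the 3′ end and 2.17 head to head. That of PLG+EACA to untreated was 1.58 below 0.05 FPKM, 1.56 with median-of-ratios scaling and 1.59 past the 3′ end. PLG+EACA lay wholly above untreated for 27.3% of tested silent neighbours without PLG+EACA replicate 4, against 17.6% with all libraries. Leaving out a library can only keep or raise this share. Fewer genes or libraries enter most of these, and otherwise the cause was not tested. Of the 112 silent neighbours called, 72 were called in each of 18 settings, and Tmod2 passed without PLG+EACA+RNase replicate 4 (adjusted p = 0.0464). With the replicate block 120 silent neighbours were higher and 0 lower (2819 and 1233 over all genes). Same-numbered libraries of the 2 treatments correlated at -0.26, 0.18, 0.02 and 0.29 in their deviations from the group means, and the other pairs at -0.33 to 0.16. Whether same-numbered libraries share an animal, culture or batch is not stated in the labels, and these values cannot decide it. Depth limits the 648 silent neighbours that were not tested.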

Other observations

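Noncoding genes under the same limits (lncRNA and TEC rows silent in untreated cells and within 10 kb of an expressed gene) numbered 474. Their summed RPM were 2.16 times higher with PLG+EACA+RNase than with PLG+EACA, and of the 25 tested 8 were higher and 0 lower by limma, where 15.5% of all genes tested were higher and 6.73% lower. The table holds 317 coding olfactory and vomeronasal receptor genes, of which 9 are silent neighbours. All 317 together had 1.65 times the summed reads with PLG+EACA+RNase, at 82 ± 6.33 RPM (SD, n = 4). Of the 24 tested, 15 were higher and 1 lower, beside the same shares of all genes. In both sets a nearly silent gene may pass the filter only because it is high with PLG+EACA+RNase. The filter can thus fix part of the counts of tested genes, as for the silent neighbours above, and these counts are a description. The ratios of summed reads use all genes of each set, tested or not. The growth factor gene Nrtn, a silent neighbour named after its values were seen, had a mean of 0.0931 RPM with PLG+EACA and was listed at 0 in all 4 PLG+EACA+RNase libraries.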
